A study of Mus musculus with 10 samples.

Results

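The control library of small RNA from mouse cortical cultures was examined on its own, to describe which microRNAs these cells held and which arm of each precursor had more reads. It is 1 of the 10 samples of the series. The cells were primary cortical neurons from embryos of the ICR strain taken at embryonic day 14 and collected at day 11 in vitro after infection with AAV-Control, a control adeno-associated virus. The vector's promoter and load, and whether cultures were pooled, are not stated in the labels. The mRNA library of the same condition served to check the cell types, and the chromatin libraries and those given Gata1 played no part. The table lists 1915 mature microRNA names, of which 834 had at least 1 read, 486 at least 20, 341 at least 100 and 159 at least 1000. With 1 library, every value below is a description of that library, with no replicate check.

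A microRNA is cut from a hairpin. Drosha, a nuclear RNase, frees the hairpin from a longer transcript, and Dicer removes its loop, which leaves a short duplex of the 5p and the 3p arm. One arm is usually loaded into an Argonaute protein and kept, and the other is lost. Argonaute pairs the seed, bases 2 to 8 of the loaded arm, with target mRNAs, so microRNAs that share a seed are grouped as a family and the 2 arms of a hairpin have different targets. Which arm is kept is known to depend on the first base and on how loosely each end of the duplex is paired.

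Mature sequences of the leading families are shown first, since their seeds define the families described below. They are RefSeq sequences (GRCm38.p6), 5′ to 3′, with the seed in capitals. The 9 names below share the seed GAGGUAG.
let-7c-5p: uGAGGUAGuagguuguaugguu
let-7f-5p: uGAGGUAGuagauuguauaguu
let-7a-5p: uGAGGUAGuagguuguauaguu
let-7b-5p: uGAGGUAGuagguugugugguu
let-7g-5p: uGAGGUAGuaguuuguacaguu
let-7i-5p: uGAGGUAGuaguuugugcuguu
let-7d-5p: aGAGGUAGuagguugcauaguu
let-7e-5p: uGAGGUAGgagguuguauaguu
miR-98-5p: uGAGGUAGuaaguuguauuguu

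The next set holds both arms of miR-9, then miR-128-3p, and then the leading members of the miR-125, miR-99 and miR-100, miR-26, miR-30, miR-92 and miR-25, and miR-181 families.
miR-9-5p: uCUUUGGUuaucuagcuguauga
miR-9-3p: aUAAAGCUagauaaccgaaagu
miR-128-3p: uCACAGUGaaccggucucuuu
miR-125b-5p: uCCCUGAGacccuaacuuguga
miR-125a-5p: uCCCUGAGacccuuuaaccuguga
miR-100-5p: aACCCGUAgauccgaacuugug
miR-99a-5p: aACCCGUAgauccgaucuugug
miR-26a-5p: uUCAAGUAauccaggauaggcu
miR-30c-5p: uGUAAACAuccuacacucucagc
miR-92b-3p: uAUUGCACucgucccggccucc
miR-25-3p: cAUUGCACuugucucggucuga
miR-181a-5p: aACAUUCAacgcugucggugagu

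The profile was steep. A single name, miR-9-5p, held 2053548 reads, or 26.5% of the 7741369 reads counted once per name, and 4 names made up 50% of the library. These were miR-9-5p, a microRNA of neural progenitors and neurons, then let-7c-5p (1038011 reads, 13.4%), let-7f-5p (600429 reads, 7.76%) and miR-128-3p (511903 reads, 6.61%), which is enriched in neurons and limits their excitability. Counting error is negligible here, with no share's 95% interval wider than 0.0311 percentage points to either side. The first 10 names held 73.9% of reads, the first 20 held 84.7%, 31 names made up 90% and 158 made up 99%. Names above 0 had a median of 41.5 reads.

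Next after let-7a-5p (482100 reads, 6.23%) came miR-125b-5p (3.30%), a relative of the worm timing microRNA lin-4. It was followed by miR-9-3p (235465 reads, 3.04%), the partner arm of the most abundant name. The list went on with let-7b-5p (2.56%), miR-30d-5p (2.32%), miR-26a-5p (2.18%), let-7g-5p (1.97%), miR-100-5p (1.36%), miR-99a-5p (1.30%) and let-7i-5p (1.19%). The last of the first 20 were let-7d-5p (0.883%), miR-30c-5p (0.862%), miR-181a-5p (0.856%), let-7e-5p (0.831%), miR-99b-5p (0.810%) and miR-125a-5p (0.716%). Of these 20 names only miR-128-3p and miR-9-3p are 3p arms. The difference between miR-30c-5p (66696 reads) and miR-181a-5p (66254 reads) was within the counting error. Ligation of adapters also depends on the ends of each RNA, so neighbouring ranks need not order the molecules.

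**Figure D1:**
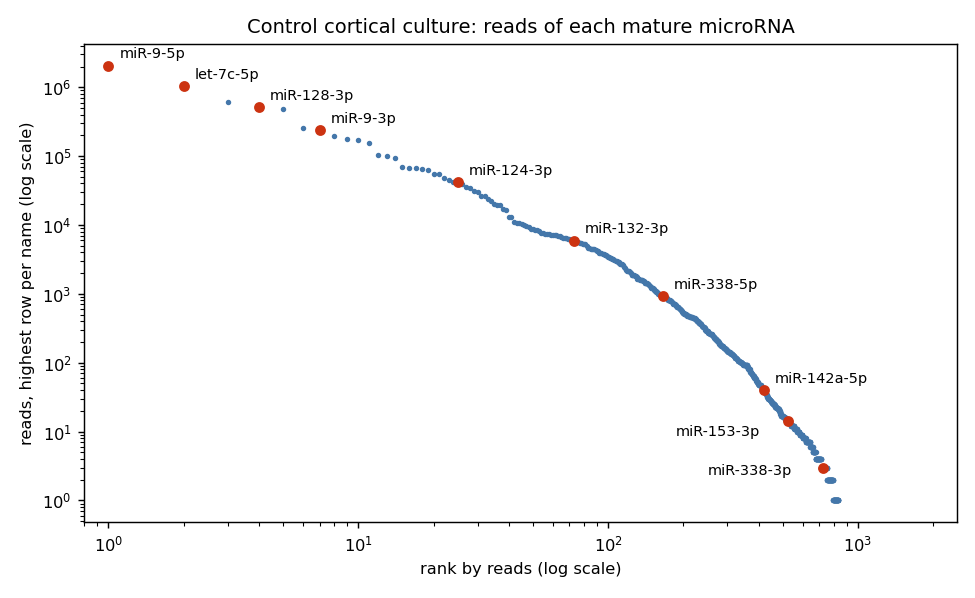
Reads of each mature microRNA in the control library (vertical axis, log scale, highest row per name) against its rank (horizontal axis, log scale), 1 point per name with at least 1 read. Labelled names run from miR-9-5p at 2053548 reads to miR-338-3p at 3 reads, and miR-124-3p stands at 41687 reads.

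Some mature names have several rows, which bears on these values. A row need not stand for 1 precursor, since let-7a-1-3p, named for 1 locus, has 2 rows of 719 reads. Of the 115 names with several rows, 38 had at least 100 reads. In 30 of those the rows lay within 10% of each other: miR-9-5p had 3 rows between 2053296 and 2053548 reads, so its reads are repeated in each. The other 8 had rows further apart. The rows of miR-92a-3p held 38817 and 1443 reads, those of miR-128-3p 511903 and 392627, and those of miR-138-5p, a microRNA of dendritic spines, 531 and 319. Wide gaps were also seen in miR-101c (6035 and 52), miR-28c (1875 and 104) and miR-374c-5p (876 and 6), names chosen after their values were seen. The files do not name the precursor of a row, so these gaps cannot be assigned to a locus. Near-identical names share reads too. For example miR-101c, whose sequence lies within that of miR-101a-3p, had 6035 reads and miR-101a-3p 6043 (miR-101c was chosen after its values were seen). Let-7 names differ at 1 to 6 of 22 bases, and let-7c-5p differs from both let-7a-5p and let-7b-5p at 1 base, so the division of reads within that family is uncertain.

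The let-7 family was the largest by seed. Its 10 names with reads held 2722825 reads, or 35.2% of the library (interval 35.1% to 35.2%). This family promotes differentiation and rises as neurons mature. Within it let-7c-5p held 38.1% of family reads, let-7f-5p 22.1%, let-7a-5p 17.7%, let-7b-5p 7.29%, let-7g-5p 5.60%, let-7i-5p 3.40%, let-7d-5p 2.51%, let-7e-5p 2.36% and miR-98-5p 0.957%. The remaining name, let-7k, had 15 reads. No member held most of the family.

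Together 10 seed families held at least 1% of reads each and 88.4% in all. Both arms of miR-9 and miR-128-3p are families of 1 name. The miR-30 family (314277 reads, 4.06%) was led by miR-30d-5p with 57.2% of its reads, before miR-30c-5p (21.2%), miR-30a-5p (17.6%), miR-30e-5p (1.97%) and miR-30b-5p (1.46%). It includes miR-384-5p (0.482%), a brain microRNA with the same seed and another name. The miR-125 family (313735 reads, 4.05%) drew 81.3% from miR-125b-5p, 17.7% from miR-125a-5p and 1.01% from miR-351-5p. By contrast miR-100-5p (39.2%), miR-99a-5p (37.5%) and miR-99b-5p (23.3%) divided the 268794 reads of their family, 3.47% of the library, more evenly.

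Of the smaller families, miR-26a-5p held 87.5% and miR-26b-5p 12.5% of 192474 reads (2.49%). The family of miR-92 and miR-25 (116948 reads, 1.51%) comprised miR-92b-3p (41.2%), miR-92a-3p (33.2%) and miR-25-3p (25.6%), while miR-363-3p had 10 reads and miR-32-5p 8. In the miR-181 family (115354 reads, 1.49%), miR-181a-5p held 57.4% and miR-181b-5p 38.5%, with miR-181d-5p at 3.32% and miR-181c-5p at 0.743%.

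**Figure D2:**
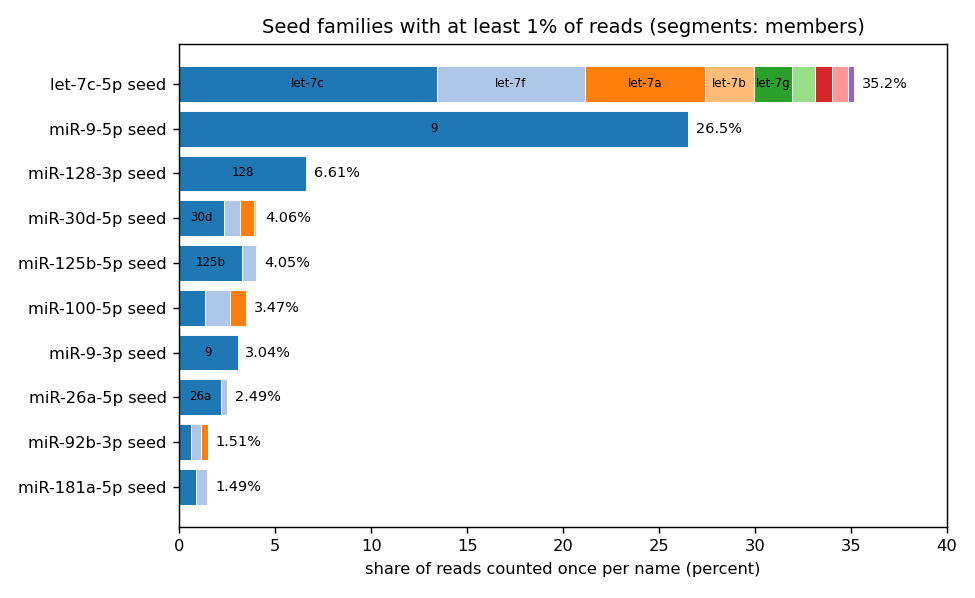
Share of reads counted once per name (horizontal axis, percent) for the 10 seed families with at least 1% of reads, each bar named by its most abundant member and divided into its members. The let-7 family reaches 35.2% in many segments, and miR-9-5p reaches 26.5% as a single name.

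The label of the culture was checked against known cell types. All 16 microRNAs listed as enriched in neurons or neural cells had reads, and 15 had at least 100. Of all 1915 names, 834 had reads and 341 at least 100. The list holds chosen arms and was drawn up with earlier results of these data known, so its count is not an independent check. Besides miR-9 and miR-128-3p the 16 include miR-124-3p (41687 reads, rank 25), the microRNA best known for neuronal identity, miR-129-5p (13089), miR-541-5p (11078) and miR-7a-5p (10625). Lower were miR-433-3p (6974), the activity-induced miR-132-3p (5903), miR-218-5p (5604), miR-488-3p (3560), miR-129-2-3p (3277) and miR-137-3p (1599). The lowest with at least 100 reads were miR-138-5p (531) and miR-212-3p (184). Only miR-153-3p fell below 100 reads, with 14. In the mRNA library of the same condition, 9 of 10 neuronal markers were found, at 4.09 to 252 FPKM.

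Markers of glia and of mural cells were also present. Astrocyte mRNA markers ranged from 21.6 to 887 FPKM, with Gfap at 887 FPKM, and the 6 markers of the oligodendrocyte lineage from 8.54 to 87.9 FPKM. Microglia markers ranged from 0.178 (P2ry12) to 92.3 FPKM (C1qa). Of the 4 endothelial markers Kdr was at 2.44 FPKM, Pecam1 at 0.340 and Cdh5 at 0.00861, and Cldn5 was listed at 0. Among 5 mural and fibroblast markers Acta2, an actin of smooth muscle, was at 76.4 FPKM and Pdgfrb, a pericyte receptor, at 13.6, with Rgs5, Col1a1 and Col1a2 between 0.0830 and 0.888. Among microRNAs, miR-21a-5p of the 6 names of the astrocyte list had 22459 reads, miR-29a-3p 2847, miR-365-3p 236, miR-193b-3p 129, miR-449a-5p 72 and miR-193a-3p 2, a median of 182.5. Of the oligodendrocyte list miR-219a-2-3p had 1863 reads, miR-219a-5p 4 and miR-338-3p 3. Of the 6 myeloid names, miR-146a-5p had 930 reads, miR-155-5p 371, miR-142a-5p 40 and miR-223-3p 14. For miR-142a-3p and miR-150-5p there were none, where a floor of 3 reads equals 0.192 CPM. The endothelial miR-126a-3p had 187 reads and its 5p arm 39, and in the smooth muscle list miR-143-3p had 800, miR-145a-3p 13 and miR-145a-5p 4. How much of any microRNA came from glia or vessel cells was not tested, and in such a culture fewer cells of a type and less RNA per cell cannot be told apart.

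The 6 epithelial names summed to 23 reads, with miR-200a-3p, miR-141-3p and miR-429-3p at 0, and 1 of 10 pluripotency names had reads (miR-292a-3p, 5). The muscle microRNA miR-1a-3p had 199 reads and the liver microRNA miR-122-5p 178. In the red cell list miR-451a had 50 reads and both arms of miR-144 none, yet miR-486a-5p had 4485, a name that shares its count with miR-486b-5p.

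By arm, names ending in 5p held 81.6% of all reads and names ending in 3p 17.8%, although 383 and 374 such names had reads. For 749 stems, a stem being a name without its arm ending, both arms are listed. At least 1 read fell on 460 of them and at least 100 reads on 204, which hold 55.5% of all reads. Of those 204 stems the 5p arm had more reads in 102 and the 3p arm in 102. In reads, 82.4% of their total was 5p, or 74.0% without miR-9, or 63.2% without miR-9, let-7 and miR-98.

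Most stems favoured 1 arm strongly. The 5p arm was at least 10-fold higher in 66 stems (32.4% of the 204) and the 3p arm in 73 (35.8%). In 65 stems (31.9%) neither arm was 10-fold higher, and in 23 (11.3%) the arms were less than 2-fold apart, with the 5p arm at least 2-fold higher in 90 (44.1%) and the 3p arm in 91 (44.6%). In the median stem the lesser arm took 2.40% of the reads, and in 34 stems it had none. At the edge of the 100-read limit stood miR-184 (0 and 101 reads for 5p and 3p) and miR-3085 (1 and 101) just inside, and miR-1224 (98 and 0) and miR-18a (68 and 26) just outside. The median lesser arm took 4.29% in the 37 stems of 100 to 300 reads, 4.72% in the 52 of 300 to 1000, 2.52% in the 81 of 1000 to 10000 and 0.471% in the 34 above.

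**Figure D3:**
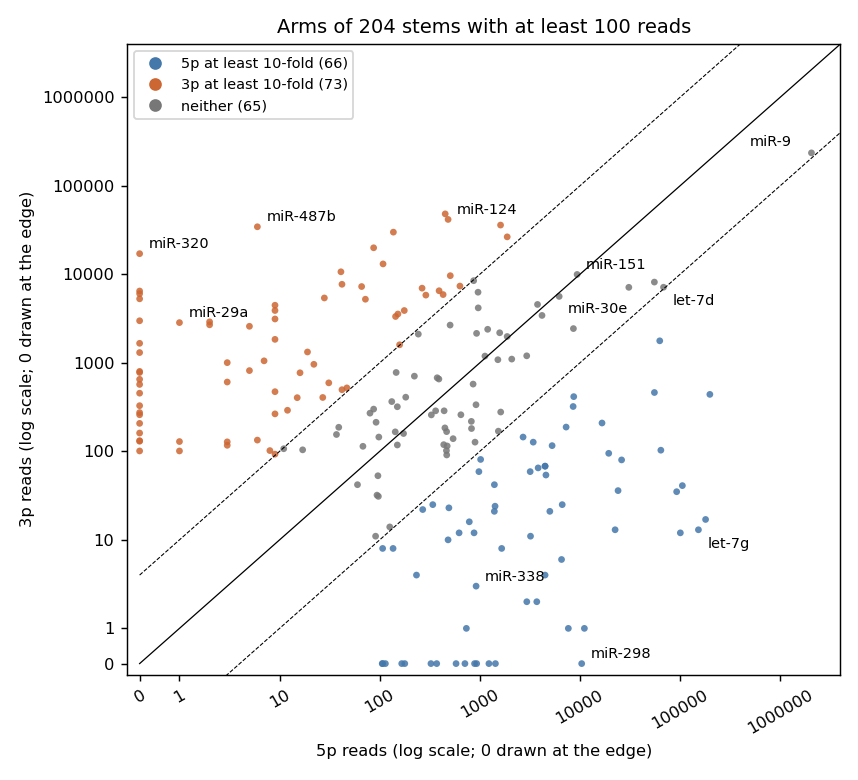
Reads of the 5p arm (horizontal) against reads of the 3p arm (vertical) for the 204 stems with at least 100 reads, 1 point per stem, both axes on a log scale with 0 drawn at the edge. The solid line marks equal use and the dashed lines 10-fold: 66 stems lie beyond the 5p line, 73 beyond the 3p line and 65 between.

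Among the 10 stems with most reads whose arms both carry unnumbered names, the 5p arm led in every case. Stems with numbered copies, such as let-7c and the 3p-dominated miR-128, have more reads than most of these and are given further on. The 5p share was over 99% in let-7b, miR-30d, let-7g, miR-100, miR-99a, let-7i and let-7e, and 97.2% in miR-99b (62679 against 1773 reads). The exceptions below 95% were miR-9 and let-7d. The lesser arm of let-7d, let-7d-3p, had 7145 reads against 68380, so the 5p share was 90.5% (interval 90.3% to 90.7%). In let-7g the same comparison gave 152580 and 13 reads, and in let-7b 198462 and 440.

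The hairpin of miR-9 is printed because both of its arms are among the 7 most abundant names. Mir9-2, on chromosome 13, is shown with the 5p arm and then the 3p arm in capitals.
Mir9-2: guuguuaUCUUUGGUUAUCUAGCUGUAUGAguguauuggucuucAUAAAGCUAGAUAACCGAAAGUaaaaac

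Both arms of miR-9 are known to act in the brain. The 5p arm had 2053548 reads and the 3p arm 235465, a 5p share of 89.7% (interval 89.67% to 89.75%) and an 8.72-fold difference. The lesser arm thus outnumbered miR-124-3p, let-7b-5p and all but 6 names. No other lesser arm ranked above 48th. The next were miR-151-5p (9373 reads, rank 48), miR-30a-3p (8169, rank 53), let-7d-3p (7145, rank 59), miR-382-3p (7127, rank 60) and miR-30e-3p (5626, rank 75). Of the 204 lesser arms 76 had at least 100 reads and 19 at least 1000, and miR-151-5p, miR-30a-3p, let-7d-3p and miR-382-3p each outnumbered miR-132-3p (5903 reads).

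Equal use was uncommon. Of the 115 stems with at least 1000 reads, 9 had a 5p share between 40% and 60%. Of the 8 stems nearest to equal use, miR-28a had 1876 reads of the 5p and 1983 of the 3p arm, a 5p share of 48.6% (interval 47.0% to 50.2%), and miR-411 had 1125 and 1192 (48.6%, interval 46.5% to 50.6%). Those intervals include 50%, so at this depth no difference between their arms was detectable. The name miR-28c lists 1875 reads in its higher row, 1 fewer than miR-28a-5p, and that row may hold the same reads. Its other row lists 104 (miR-28c was chosen after its values were seen). In miR-151 the arms had 9373 and 9963 reads, a 5p share of 48.5% whose interval (47.8% to 49.2%) lies below 50% in this library.

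Of the others, miR-30e (6203 and 5626 reads, 52.4%), miR-335 (4180 and 3431, 54.9%) and miR-384 (1515 and 1084, 58.3%) leaned to 5p. The remaining pair, miR-423 (3770 and 4565, 45.2%) and miR-106b (1579 and 2186, 41.9%), leaned to 3p. The arms of 5 of these stems follow, with the seed in capitals, to show that arms with unlike seeds were present together.
miR-28a-5p: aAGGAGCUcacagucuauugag
miR-28a-3p: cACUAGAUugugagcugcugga
miR-411-5p: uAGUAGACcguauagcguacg
miR-411-3p: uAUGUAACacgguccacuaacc
miR-423-5p: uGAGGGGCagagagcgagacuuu
miR-423-3p: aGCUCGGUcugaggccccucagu
miR-335-5p: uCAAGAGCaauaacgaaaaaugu
miR-335-3p: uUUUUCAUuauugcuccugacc
miR-106b-5p: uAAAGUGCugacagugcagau
miR-106b-3p: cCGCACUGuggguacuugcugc

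At the other extreme an arm was not seen. The 5p arm of miR-320 had 0 of 17107 reads, and the interval of its share reaches 0.0216%. With the floor of 3 reads for the 5p arm, the 3p arm was 5702-fold higher. The hairpin of miR-320 is known to be made without Drosha and to give its 3p arm. The same was seen for 6 further stems with at least 1000 reads. Those named by the rule were miR-652 (6477 reads of the 3p arm), miR-101a (6043), miR-328 (5287), miR-101b (2987) and miR-3475 (1661), and the last was miR-107, with 1306 reads. On the 5p side miR-298 (10411 reads), miR-669c (1432) and miR-346 (1233) had no 3p read. For miR-298 the interval of the 3p share reaches 0.0354%. Close behind came let-7g (5p share 99.99%), miR-541 (11078 reads and 1) and miR-30d (179880 and 17).

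Related stems did not always use the same arm. In 17 groups of stems that share a number and differ by letter, 41 stems in all, 14 groups kept 1 arm as the higher in each stem and 3 did not. In 2 of the 14 the stems may hold the same reads: miR-486a and miR-486b both list 4485 and 68, and miR-374c-5p (876 reads) is contained in miR-374b-5p (886). Leaving those out, 12 groups kept 1 arm (these groups were chosen after their values were seen). The 3 groups with unlike arms were miR-34, miR-130 and miR-29. In miR-34, a p53-linked family, miR-34a had 710 reads of the 5p arm and 0 of the 3p arm, miR-34b 0 and 132, and miR-34c 96 and 53. In miR-130, miR-130a had 15 and 404 reads and miR-130b 541 and 139, a 5p share of 3.58% against 79.6% with intervals far apart. In miR-29, miR-29a had 1 and 2847 reads and miR-29c 60 and 42, where the interval of the 5p share (48.6% to 68.5%) includes 50%.

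The miR-30 stems all leaned to 5p but by unequal amounts. The 5p share was 99.99% in miR-30d, 98.8% in miR-30b (4575 and 54 reads), 87.2% in miR-30a (55408 and 8169) and 52.4% in miR-30e. The hairpins of Mir30a, on chromosome 1, and Mir30e, on chromosome 4, are printed for that reason, with both arms in capitals. Their 5p arms differ at 1 of 22 bases, and so do their 3p arms.
Mir30a: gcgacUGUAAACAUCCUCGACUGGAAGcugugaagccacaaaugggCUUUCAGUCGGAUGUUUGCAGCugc
Mir30e: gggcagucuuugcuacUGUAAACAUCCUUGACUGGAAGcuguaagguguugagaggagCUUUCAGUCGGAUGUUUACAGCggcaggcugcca

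The 3p arm had 8169 reads in miR-30a and 5626 in miR-30e, 1.45-fold apart, and the 5p arm 55408 and 6203, 8.93-fold apart. Since each arm differs from its counterpart by 1 base, reads with a mismatch could fall on either name. In the miR-181 family miR-181d used 5p for 98.3% of 3889 reads and miR-181c for 59.8% of 1432.

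**Figure D4:**
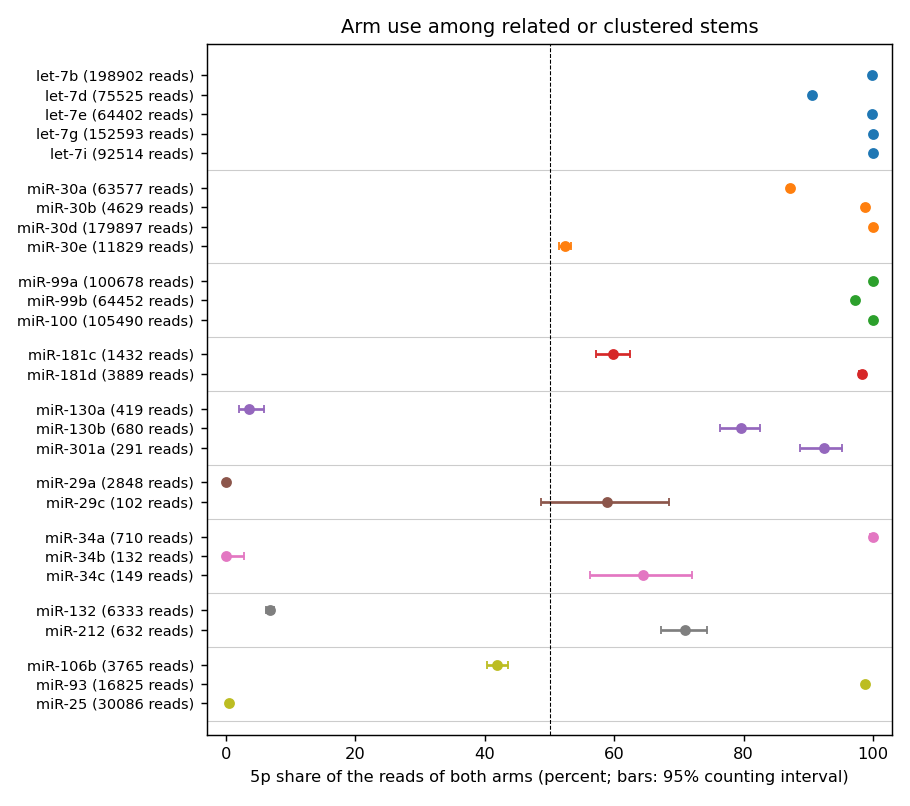
Share of the 5p arm in the reads of both arms (horizontal axis, percent) for stems that share a family or a transcript, 1 point per stem with its 95% counting interval; the reads of both arms stand beside each name and the dashed line marks 50%. Points of the miR-34, miR-130, miR-29, miR-212 with miR-132, and miR-106b with miR-93 and miR-25 groups fall on both sides of the line, while let-7, miR-99, miR-30 and miR-181 points stay to its right.

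Several of the most abundant microRNAs come from more than 1 locus, and then 1 arm carries a plain name while the other has a numbered name for each locus. Pairing the plain name with the sum of the numbered ones adds 26 stems of at least 100 reads, which hold 43.9% of reads. In 11 of them the 5p arm was at least 10-fold higher, in 7 the 3p arm, and in 8 neither. The 5p share was 99.9% in let-7c (1038011 reads against 1371), 99.99% in let-7f and 99.8% in let-7a. In miR-128 it was 0.0478% (245 against 511903 reads), with 25 5p reads from the first locus and 220 from the second.

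The numbered names let loci be compared, since the lesser arms differ where the other arm is shared. In miR-125b the first locus gave 6888 reads of its 3p arm and the second 1590, in miR-181a 1263 and 11, in miR-30c 70 and 1050, and in miR-129 175 and 3277. The shared arm cannot be divided between loci, so these numbers compare lesser arms only. Identical sequences also occur between names: let-7a-1-3p and let-7c-2-3p are the same sequence and both list 719 reads. In miR-129, a neuronal microRNA, the 5p share was 79.1%, in miR-135a 71.5% and in miR-138 64.1%.

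For 13 listed microRNAs the arm that is usually named as the active one was not the higher one here. The comparison covered 99 members of the family, cell type and cluster lists with both arms listed separately, only 1 arm on a list and at least 20 reads. In 7 of the 13 the listed arm was at least 10-fold lower. The widest gap with a listed arm above 0 was that of miR-338, made in oligodendrocytes and in neurons from an intron of Aatk: the listed 3p arm had 3 reads and the 5p arm 918, a 3p share of 0.326% (interval 0.0672% to 0.949%). Its hairpin (Mir338, chromosome 11) has the 5p arm and then the 3p arm in capitals.
Mir338: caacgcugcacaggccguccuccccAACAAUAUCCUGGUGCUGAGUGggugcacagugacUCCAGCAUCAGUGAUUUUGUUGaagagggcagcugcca

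A like case on numbered names was miR-219a, also known from oligodendrocytes, whose 5p arm had 4 reads and whose 3p arms had 231 and 1863. Other listed arms with fewer reads were miR-322-5p (144 against 3337), miR-136-5p (27 against 406), miR-301a-3p (22 against 269), miR-34b-5p (0 against 132), miR-32-5p (8 against 102) and miR-193a-3p (2 against 73). For miR-130b-3p the counts were 139 and 541, for miR-212-3p 184 and 448, for miR-29c-3p 42 and 60 and for miR-363-3p 10 and 17. In miR-29b the 3p arm, the one listed, had 18 reads and the 2 numbered 5p arms 100 and 60. The other 86 of the 99 listed arms were at least as high as their partner. Of the 12 with both sequences the listed arm had the lower GC content in 7, and among the 73 listed arms that were not lower and had both sequences it did in 44.

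MicroRNAs cut from 1 primary transcript were at similar levels in some clusters and far apart in others. In the cluster of miR-99b, let-7e and miR-125a the 3 names had 62679, 64299 and 55451 reads, a range of 1.16-fold. In that of miR-221 and miR-222 they had 6521 and 7714 (1.18-fold), and in that of miR-23b, miR-27b and miR-24 between 3699 and 7276 (1.97-fold). The lowest of these, miR-24-3p, is also made with miR-23a and miR-27a, and its 3699 reads cannot be assigned to either transcript; miR-27b-3p and miR-23b-3p alone were 1.39-fold apart.

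The miR-17 to miR-92 cluster, known for promoting growth of progenitors, had 10 reads of miR-19a-3p, 68 of miR-18a-5p, 462 of miR-19b-3p, 896 of miR-17-5p, 1653 of miR-20a-5p and 38817 of miR-92a-3p, a range of 3882-fold. The last comes from a second locus too. With its lower row, 1443 reads, the range is 165.3-fold, against 500.5-fold in the cluster of miR-183 and 1333-fold in the miR-127 to miR-136 list. The lowest name of that list, miR-136-5p (27 reads), is the lesser arm of its stem, and miR-136-3p had 406. The 1333-fold range thus depends on which arm is listed. In that sensory cluster of miR-183, miR-96 and miR-182 the counts were 5005, 10 and 3707. The activity-induced pair miR-132-3p and miR-212-3p had 5903 and 184 reads (32.1-fold), and miR-212 used its 5p arm more (448 reads, 70.9%) whereas miR-132 used 3p (5p share 6.79%). In the cluster of miR-106b, miR-93 and miR-25, miR-25 used 3p for 99.5% of reads, miR-93 used 5p for 98.8%, and miR-106b used both.

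**Figure D5:**
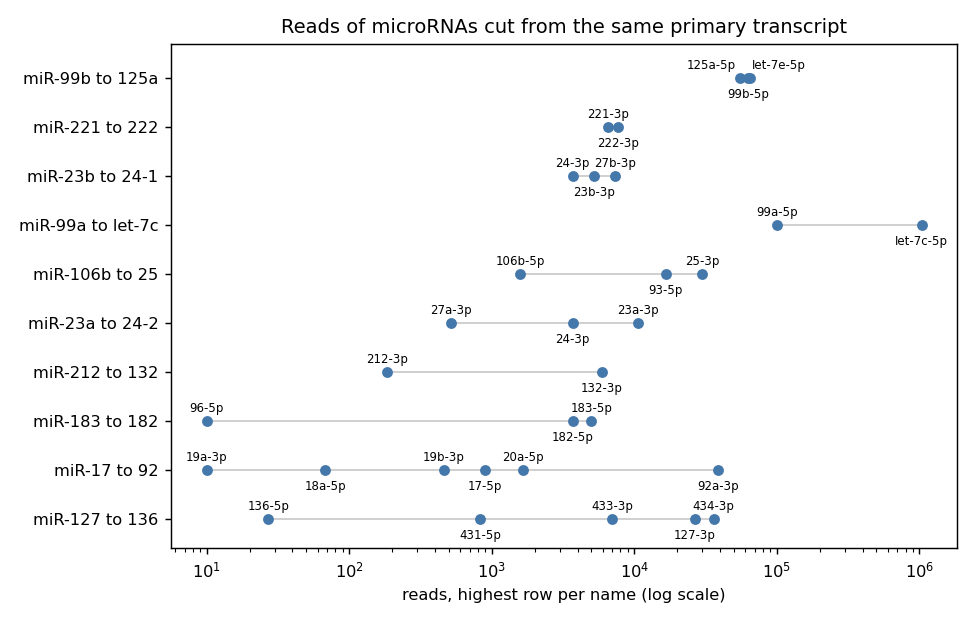
Reads of each member (horizontal axis, log scale, highest row per name) in 10 clusters of microRNAs made from a shared transcript, 1 point per name. Members of the miR-99b to miR-125a cluster lie within 1.16-fold, and those of the miR-17 to miR-92 cluster spread from 10 to 38817 reads, or to 1653 with the lower row of miR-92a-3p.

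The imprinted Dlk1-Dio3 region on chromosome 12 makes its microRNAs from the maternal allele. In its miR-379 to miR-410 cluster 24 of 27 listed names had at least 100 reads, against 341 of all 1915 names. These 27 names held 1.75% of all reads, with their partner arms left out, led by miR-487b-3p (34439), miR-382-5p (30784) and miR-323-3p (19939). The neighbouring miR-127 to miR-136 list held 0.908%, led by miR-434-3p (36001) and miR-127-3p (26488). Of 29 stems of both lists with at least 100 reads, the 3p arm was at least 10-fold higher in 16 (55.2%, against 35.8% of all stems) and the 5p arm in 4 (13.8%, against 32.4%). A pair of large name groups held few reads. Of the 80 names of the rodent miR-466, miR-467, miR-669 and miR-297 group, 34 had reads and 3 at least 100. For the 403 names from miR-6896 to miR-7094 these counts were 90 and 1, and for all 1915 names 834 and 341. The rodent group held 6995 reads, of which 4487 were those of miR-466i-5p, and the 403 names held 968.

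First bases differed between the higher and the lesser arms. Of the 167 stems of at least 100 reads with both sequences, the higher arm began with U in 84 (50.3%) and the lesser arm in 35 (21.0%). C began 24 higher arms and 50 lesser ones, A 44 and 55, and G 15 and 27. Where the arms were at least 10-fold apart (108 stems) U began 59 higher and 17 lesser arms, or 54.6% and 15.7%, and where they were closer (59 stems) 25 and 18, or 42.4% and 30.5%. The direction was the same for stems with a higher 5p arm (48 against 21 of 84) and with a higher 3p arm (36 against 14 of 83).

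Over the first 4 bases, which include the first base just described, the higher arm had more A and U than the lesser arm in 76 stems, fewer in 38 and as many in 53. Over bases 2 to 4 alone it had more in 63, fewer in 52 and as many in 52. Pairing of the duplex ends and loading into Argonaute were not measured. Adapter ligation also depends on the ends of each RNA, and its part in these counts cannot be told apart. Among all 1623 names with a sequence U begins 40.2%, and among the 301 of those with at least 100 reads 41.9%. By reads of the names with a sequence U began 84.9%, or 59.7% without miR-9-5p and the let-7 list. Over whole arms GC content was lower in the higher arm in 90 stems and higher in 63, with medians of 47.6% and 50% for the higher and the lesser arm. No test was made on these counts, which come from stems that are partly related in sequence.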

How the data were processed

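The control small RNA library of cultured cortical neurons was described from its deposited table, and the control mRNA library served only to check the culture. Per the labels' protocols, RNA was isolated with a miRNeasy kit, adapters were ligated with a NEXTFLEX kit, and the amplified product was sized on a gel. The small RNA values are CPM, which the file headers call normalized counts and which the authors scaled to the same sum over all rows. The mRNA values are FPKM, per the file headers. Per the submitters' processing notes, Bowtie 1.1.2, HTSeq 0.6.1p1 and edgeR 3.10.2 are among the tools named and mm9 and mm10 among the builds, with no role given; the counting of reads that match several loci is not stated there.

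All CPM values above 0 (100%) were whole multiples of 1 read, worth 0.0640 CPM, within a tolerance of 0.0055 CPM. Reads were recovered from them, and total 15632553 over the 2241 rows. Rows of 1 mature name repeat reads, so the highest row of each of the 1915 names was kept, leaving 7741369 reads, the base of all shares. Sequences came from RefSeq (GRCm38.p6), matched by name for 1623 names, which hold 95.3% of reads. Seed families share bases 2 to 8 of the mature sequence. A name with no sequence joined a family through a list of names. Arm use is the 5p share of the reads of both arms for stems with at least 100 reads. A count of 0 took a floor of 3 reads in folds. Intervals are exact (Clopper-Pearson, 95%) and cover counting error only, since PCR copies are not independent molecules.

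With 1 library there was no test and no replicate check. The libraries given Gata1 were not used. The members and lists were chosen with earlier results of these data known. Names printed are the 20 most abundant, families with at least 1% of reads, the 10 stems with most reads, the 8 with at least 1000 reads nearest to equal use, the 6 highest and 6 lowest in 5p share, and members of fixed lists. Others were chosen after their values were seen. Read recovery and arm calls were tested on simulated data with Python 3.11.15, numpy 2.4.6, pandas 2.3.3 and scipy 1.17.1.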

Additional observations from a re-analysis of the deposited data

How the results depend on the processing

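With 1 library no replicate could be left out, and no paired analysis was possible because each condition has 1 small RNA library. Summing all rows of a name, which counts the reads of names with several rows more than once, raised miR-9-5p from 26.5% to 39.4% of reads and lowered the names that make up 90% from 31 to 18. It moved the let-7 family from 35.2% to 30.9%, miR-125 from 4.05% to 3.63% and miR-30 from 4.06% to 2.44%, and the 5p share of miR-9 from 89.7% to 89.8%; 17 of the first 20 names were shared. With the mean of rows miR-9-5p stood at 26.9%, and with names of identical counts counted once at 26.6%. Families by bases 2 to 7 or by name lists gave 35.22% for let-7 in place of 35.17%, and name lists 4.04% for miR-30. These last moves are small and come from names that join or leave a family, a change that counting error does not measure. A minimum of 1000 reads left 43 stems with a 5p arm and 41 with a 3p arm at least 10-fold higher, since fewer stems are counted. Without a minimum their shares of stems were 18.3% and 20%. At 20 reads, at 2-fold and 20-fold limits, with a floor of 1 read, with rows summed, with numbered copies joined or with repeated stems counted once (the last chosen after seeing the data), the counts stayed within 1.5 times of 66 and 73. A U began 51.0% of higher and 23.3% of lesser arms at 20 reads, and 54.8% and 18.3% at 1000 (both limits chosen after seeing the data). Over bases 2 to 4 alone, stems whose higher arm had more A and U numbered 63 in place of 76, and fewer 52 in place of 38, and the range of the miR-17 to miR-92 cluster was 165.3-fold in place of 3882-fold with the lower row of miR-92a-3p (both also chosen after seeing the data). Stems of few reads cannot reach 10-fold over the floor, and reads repeated over near-identical names cannot be divided.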
